A study of Mus musculus with 15 samples.

Results

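The 10 genes described here encode 6 matrix metalloproteinases (Mmp2, Mmp11, Mmp14, Mmp15, Mmp16 and Mmp17) and the 4 tissue inhibitors of metalloproteinases (Timp1 to Timp4), out of 45706 genes listed for mouse cultures in which Cre did or did not act on a floxed Srf gene. They were chosen by gene symbol, and Mmp2 was selected on its higher level in SRF-KO oligodendrocytes, so its values in that contrast are a description and carry no test. The other 9 joined it as members of the same enzyme-inhibitor system.

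Matrix metalloproteinases (MMPs) are zinc proteases that cut collagens, laminins, proteoglycans and cell-surface proteins. They are made as inactive proenzymes, in which a cysteine of the propeptide blocks the catalytic zinc. TIMPs hold the active enzymes in check by inserting their first cysteine into the active site. Mmp2 (gelatinase A) and Mmp11 (stromelysin-3) are secreted, Mmp14, Mmp15 and Mmp16 cross the plasma membrane, and Mmp17 is held on it by a GPI anchor. Mmp14 activates the Mmp2 proenzyme at the cell surface, with Timp2 as the bridge between them. In the oligodendrocyte lineage, secreted and membrane-bound MMPs have been linked to process extension, precursor migration and the clearing of inhibitory proteoglycans.

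The RNA came from oligodendrocyte precursor cells (OPCs), immunopanned from the brains of mice with floxed Srf alleles on both chromosomes. SRF is a transcription factor of cytoskeletal and immediate-early genes. The SRF-KO OPC group (n = 3) received AAV DJ-CMV eGFP-cre and the control OPC group (n = 4) AAV DJ-CMV eGFP-deleted cre, on day 3 of culture, and both were frozen 48 hours after infection. The SRF-KO OL group (n = 4) received lentivirus-CRE-IRES-GFP and the control OL group (n = 4) a GFP lentivirus on day 6, and both were frozen on day 3 of differentiation into oligodendrocytes (OLs). All 4 groups thus carry the floxed alleles and a virus. Cre without floxed alleles was not analysed here, and the CMV promoter of the AAV is active in most cell types, so Cre was not restricted to the lineage. For the SRF-KO OL samples the treatment label ends in the word "control", while the titles, which set the groups, call them SRF-KO. Mesenchymal stem cells and an Olig2-Cre driver appear in the series text and in no sample label. The labels name no separate animal or culture for a replicate, so p-values measure the spread between these libraries, which may be technical.

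The Srf transcript was counted first as a check of the labels. It averaged 0.211 ± 0.0127 CPM in SRF-KO OPCs and 7.87 ± 1.71 CPM in control OPCs (SD, n = 3 and 4), and 3.04 ± 0.959 CPM in SRF-KO OLs and 8.29 ± 0.973 CPM in control OLs (SD, n = 4 each). Here CPM is the share of a library's counts, in the usual CPM unit, after TMM scaling within a stage. The log2 fold change was -5.16 in OPCs (adjusted p = 0.000569) and -1.45 in OLs (adjusted p = 0.0224, edgeR's quasi-likelihood test with Benjamini-Hochberg adjustment over all genes). In OLs it passed the threshold in 2 of the 8 fits that leave out 1 library. Total expected counts per library ran between 4303739 and 16026511. The lowest totals were those of SRF-KO OL replicate 3 (4303739) and SRF-KO OL replicate 4 (5133146). Mitochondrial genes held 14.2% of the counts in SRF-KO OL replicate 4 and 9.08 to 11.6% in the other OL libraries. One library of each knockout group stood apart on the first principal component of its stage, SRF-KO OPC replicate 2 (47.6, the other 6 between -22.95 and 6.01) and SRF-KO OL replicate 4 (80.51, the other 7 between -18.76 and 0.4476), and fold changes that move most without them are given both ways.

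The catalytic centres of the 6 enzymes are shown because they define the family: 3 histidines hold the zinc ion. The stretches below are coding sequence 5′ to 3′ from GENCODE M21 transcripts, with GRCm38 coordinates and strand, and the 3 histidine codons are in capitals.

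Mmp2, exon 8 of 13, chr8:92839279-92839311, plus strand: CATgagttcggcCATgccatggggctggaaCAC
Mmp11, exon 5 of 8, chr10:75926931-75926963, minus strand: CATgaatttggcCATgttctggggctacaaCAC
Mmp14, exon 5 of 10, chr14:54437627-54437659, plus strand: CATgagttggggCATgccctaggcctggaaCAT
Mmp15, exon 5 of 10, chr8:95368585-95368617, plus strand: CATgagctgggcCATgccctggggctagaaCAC
Mmp16, exon 5 of 10, chr4:18051748-18051780, plus strand: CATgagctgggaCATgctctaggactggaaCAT
Mmp17, exon 5 of 10, chr5:129596597-129596629, plus strand: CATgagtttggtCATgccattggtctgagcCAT

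Between the propeptide cysteine and this centre, a furin-type cleavage pattern (arginine, any residue, arginine or lysine, arginine) was found in 5 of the 6. Furin cuts such sites inside the cell, and the pattern was not found in Mmp2. The codons of the outer arginines are in capitals.

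Mmp11, chr10:75928327-75928338, minus strand: CGAcagaagCGC
Mmp14, chr14:54436202-54436213, plus strand: CGGaggaagCGC
Mmp15, chr8:95366358-95366369, plus strand: CGTcgacggCGG
Mmp16, chr4:17996258-17996269, plus strand: CGTcgaaagCGC
Mmp17, chr5:129595025-129595036, plus strand: AGAaggaagCGG

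The first 6 codons of each mature TIMP carry the inhibitory end, with the codons of its cysteines in capitals.

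Timp1, chrX:20871111-20871128, plus strand: TGTagcTGTgccccaccc
Timp2, chr11:118354995-118355012, minus strand: TGCagcTGCtccccggtg
Timp3, chr10:86300923-86300940, plus strand: TGCacaTGCtctcccagc
Timp4, chr6:115251674-115251691, minus strand: TGCagcTGTgcgcctgcg

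Mmp2, which digests type IV collagen and gelatin, was the member with the highest fold change in OLs. It had 12.2, 9.82, 10.49 and 6.79 CPM in the SRF-KO OL libraries, against 2.33, 1.93, 1.22 and 1.12 CPM in the control OL libraries. Those CPM rest on 36 to 144 counts per SRF-KO OL library and 8 to 25 per control OL library. Every SRF-KO OL library lay above every control, with SRF-KO OL replicate 4 the lowest of its group. It averaged 9.82 ± 2.26 CPM in SRF-KO OLs and 1.65 ± 0.578 CPM in control OLs (SD, n = 4 each), a log2 fold change of 2.57, or 5.94-fold. This is the value that selected the gene. In such bulk samples a change in the number of cells of a type and a change in RNA per cell cannot be told apart.

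In OPCs, whose libraries did not enter that choice, Mmp2 had 27.5, 23.6 and 25.99 CPM in the SRF-KO libraries, against 14.6, 18.1, 17.0 and 21.7 CPM in the controls. The groups did not overlap. The log2 fold change was 0.53 with an SE of 0.155, and its adjusted p of 0.263 in edgeR did not pass the threshold of 0.05. A two-sided exact permutation test of the mean log2 CPM gave p = 0.0571. The value without SRF-KO OPC replicate 2 was 0.59. No other annotated gene overlaps Mmp2 (chr8:92827291-92853420).

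**Figure D1:**
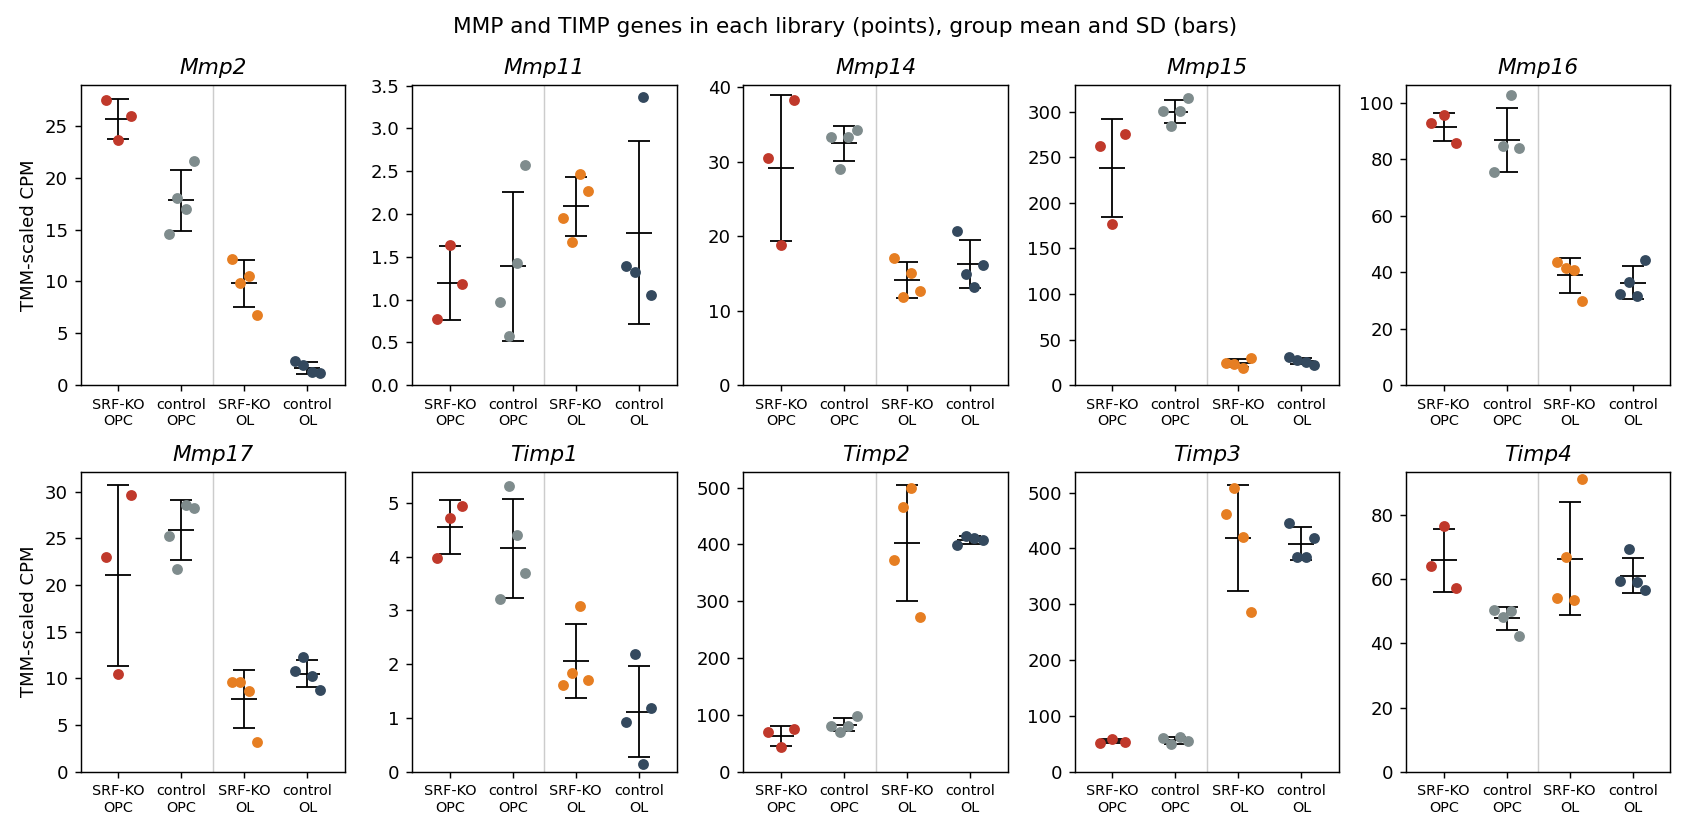
TMM-scaled CPM (vertical axis, linear and starting at 0, with its own scale in each panel) of the 10 genes in each library (points), with group mean and SD (bars), in SRF-KO and control OPCs and in SRF-KO and control OLs. The 4 SRF-KO OL points of Mmp2 lie between 6.79 and 12.2 CPM and the controls between 1.12 and 2.33 CPM; OPC and OL levels come from different gene models and are not to be compared.

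Mmp11, a secreted enzyme that furin activates before release, had the lowest TPM of the 10 genes in OPCs. It averaged 1.20 ± 0.432 CPM in SRF-KO OPCs and 1.39 ± 0.868 CPM in control OPCs, and 2.09 ± 0.349 CPM in SRF-KO OLs and 1.78 ± 1.07 CPM in control OLs. Its counts were 7 to 30 per OPC library and 12 to 23 per OL library. The log2 fold changes were -0.16 (SE 0.566, adjusted p = 0.933) in OPCs and 0.28 (SE 0.376, adjusted p = 0.838) in OLs (edgeR). In OLs the value was 0.70 without control OL replicate 3, which held the highest of the 8 values (adjusted p = 0.615, edgeR), and 0.079 to 0.70 over all libraries left out in turn.

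Mmp15 had the highest TPM among the 6 MMPs in OPCs. This membrane-type enzyme had 263, 176.9 and 275.6 CPM in SRF-KO OPCs, against 301.2, 284.2, 301 and 314.8 CPM in control OPCs. All 3 SRF-KO libraries lay below all 4 controls, and SRF-KO OPC replicate 2 was far below the other 2. The log2 fold change was -0.33 (SE 0.132, adjusted p = 0.365, edgeR), with p = 0.0286 in the exact permutation test (two-sided). Without replicate 2 it was -0.16. In OLs Mmp15 averaged 24.0 ± 4.22 CPM in SRF-KO and 26.4 ± 3.5 CPM in control libraries (SD, n = 4 each), with overlapping groups and a log2 fold change of -0.14 (SE 0.157), or -0.25 without SRF-KO OL replicate 4.

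Mmp14, the activator of Mmp2, had 30.5, 18.8 and 38.2 CPM in SRF-KO OPCs, against 33.4, 29.0, 33.3 and 34.3 CPM in control OPCs. The SRF-KO libraries lay on both sides of the controls. In OPCs the log2 fold change of -0.17 (SE 0.199) became 0.08 without SRF-KO OPC replicate 2. In OLs it had 17.0, 11.8, 15.01 and 12.6 CPM in SRF-KO libraries, against 20.7, 14.9, 13.2 and 16.1 CPM in controls, with overlapping groups and a log2 fold change of -0.20 (SE 0.177). For this activator of Mmp2 the adjusted p was 0.768 in OPCs and 0.723 in OLs (edgeR).

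Mmp16, another transmembrane enzyme, had nearly the same mean in both groups of each stage. It averaged 91.4 ± 4.97 CPM in SRF-KO OPCs and 86.8 ± 11.4 CPM in control OPCs, and 38.9 ± 6.19 CPM in SRF-KO OLs and 36.2 ± 5.79 CPM in control OLs. The log2 fold changes were 0.08 (SE 0.109) and 0.10 (SE 0.161). Mmp17, the GPI-anchored enzyme, averaged 21.03 ± 9.73 CPM in SRF-KO OPCs and 25.9 ± 3.22 CPM in control OPCs, and 7.79 ± 3.09 CPM in SRF-KO OLs and 10.5 ± 1.47 CPM in control OLs. In both stages 1 SRF-KO library lay far below the others. SRF-KO OPC replicate 2 had 10.48 CPM where the other 2 had 23.0 and 29.6 CPM, and SRF-KO OL replicate 4 had 3.21 CPM where the other 3 had 8.64 to 9.66 CPM. For Mmp17 the log2 fold change was -0.32 in OPCs and 0.03 without that library, and -0.39 in OLs and -0.18 without that library.

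Among the inhibitors, Timp4 had the lowest p in OPCs. It is the TIMP with the most restricted tissue distribution, brain and heart included. SRF-KO OPC libraries had 64.1, 76.6 and 57.1 CPM, against 50.3, 48.3, 50.1 and 42.5 CPM in control OPCs. Each SRF-KO library was above each control. Its log2 fold change was 0.47 (SE 0.117) with an adjusted p of 0.219 in edgeR and 0.0548 in DESeq2, neither under 0.05. The exact permutation test (two-sided) gave p = 0.0286. Without SRF-KO OPC replicate 2, the highest, it was 0.34. In OLs the groups overlapped, with 54.2, 66.9, 53.5 and 91.1 CPM in SRF-KO libraries and 59.5, 69.3, 59.1 and 56.8 CPM in controls. In this stage the log2 fold change was 0.12 (SE 0.179) and became -0.09 without SRF-KO OL replicate 4, which held the highest value.

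Timp2, which both inhibits Mmp2 and bridges its activation by Mmp14, had a lower mean in SRF-KO OPCs. It had 69.5, 43.1 and 75.7 CPM in SRF-KO OPCs, against 80.6, 70.8, 80.8 and 98.7 CPM in control OPCs. The ranges overlapped, and the log2 fold change was -0.40 (SE 0.178, adjusted p = 0.410, edgeR; two-sided exact permutation p = 0.0857). Without SRF-KO OPC replicate 2 it was -0.19. In OLs Timp2 averaged 402.6 ± 102 CPM in SRF-KO and 408.2 ± 7.05 CPM in control libraries (SD, n = 4 each). The means were close while the SRF-KO libraries spread from 271.6 to 500.2 CPM, and the log2 fold change was -0.02 (SE 0.192), or 0.10 without SRF-KO OL replicate 4, the lowest of them.

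Timp3, the inhibitor that binds to the matrix and also blocks ADAM proteases, had group means close to each other in both stages. It averaged 54.9 ± 3.96 CPM in SRF-KO OPCs and 56.7 ± 6.12 CPM in control OPCs, and 418.4 ± 95.6 CPM in SRF-KO OLs and 408.4 ± 29.0 CPM in control OLs. Its log2 fold changes were -0.04 (SE 0.110) in OPCs and 0.04 (SE 0.187) in OLs, or 0.16 in OLs without SRF-KO OL replicate 4. Timp1, an inducible inhibitor that blocks transmembrane enzymes such as Mmp14 weakly, stayed at or under 5.32 CPM in every library. It averaged 4.54 ± 0.504 CPM in SRF-KO OPCs and 4.15 ± 0.916 CPM in control OPCs. In OLs it had 1.61, 1.84, 3.09 and 1.70 CPM in SRF-KO libraries, against 0.930, 2.20, 0.153 and 1.19 CPM in controls. Those OL values rest on 9 to 23 counts per SRF-KO library and 1 to 25 per control library, and the log2 fold change of 0.73 had an SE of 0.474 and an adjusted p of 0.617 (edgeR). It ran from 0.463 without control OL replicate 3 to 1.231 without control OL replicate 2 (adjusted p = 0.475, edgeR).

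**Figure D2:**
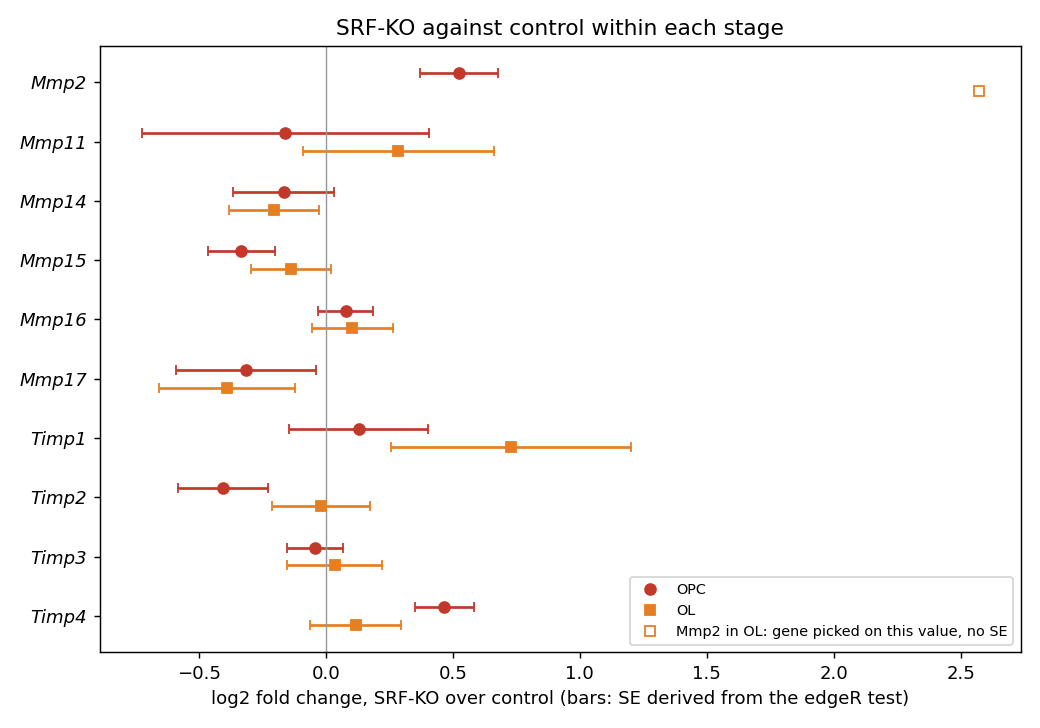
The log2 fold change of each gene, SRF-KO over control, in OPCs (circles) and OLs (squares), with the SE derived from the edgeR test as bars; Mmp2 in OLs is an open square with no SE, since it was picked on that value. Mmp2 in OLs lies at 2.57, while all the other values lie between -0.40 and 0.73.

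Read over the whole set, none of the 10 genes passed an adjusted p of 0.05 in OPCs with edgeR, where 0.0678% of the 13271 genes tested did, and none did with DESeq2, which called 1.05%. At an unadjusted p under 0.05 there were 4 (Mmp2, Mmp15, Timp2 and Timp4), against 11.9% of all genes tested. Without SRF-KO OPC replicate 2 there were 2, Mmp2 and Timp4. In OLs, 0 of the 9 genes other than Mmp2 passed with edgeR or DESeq2 and 0 had an unadjusted p under 0.05, against 0.296% of 15193 genes called and 11.6% at the unadjusted threshold. DESeq2 called 1.97% of all genes there. Without control OL replicate 2 there was 1 under the unadjusted threshold, Timp1, and without control OL replicate 3 there was 1, Mmp11. Leaving out SRF-KO OL replicate 4 gave the same count of 0, in a fit that called 4.12% of all genes. All 10 had passed the filter on low counts in both stages.

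Groups did not overlap, with SRF-KO higher, for 2 of the 10 genes in OPCs (Mmp2 and Timp4), where 5.96% of all genes tested had that pattern. With SRF-KO lower it was 1 of 10 (Mmp15), where 6.25% of all genes had it. In OLs 0 of the other 9 genes had either pattern, against 4.19% of all genes with SRF-KO higher and 3.9% with SRF-KO lower. The log2 fold changes were above 0 for 4 of 10 genes in OPCs and 5 of 9 in OLs. The median was -0.16 for the 6 MMPs and 0.04 for the 4 TIMPs in OPCs, and -0.14 for the 5 MMPs other than Mmp2 and 0.08 for the TIMPs in OLs. Over all genes tested it was -0.001 in OPCs and 0.02 in OLs.

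Whether a knockout effect differed between OLs and OPCs was tested as an interaction over all 15 libraries, in which 0.112% of 16135 genes were called. With edgeR 0 of the 9 genes passed, 0 had an unadjusted p under 0.05, and DESeq2 gave 0 as well. The lowest adjusted p was 0.665, for Timp4, whose effect was 0.37 lower in OLs than in OPCs on the log2 scale, with an SE of 0.228. For Mmp2 the effects in the 2 stages are given only side by side, 2.57 in OLs and 0.53 in OPCs. The stages differ in virus, time after infection and the gene models used for counting, as well as in cell state.

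**Figure D3:**
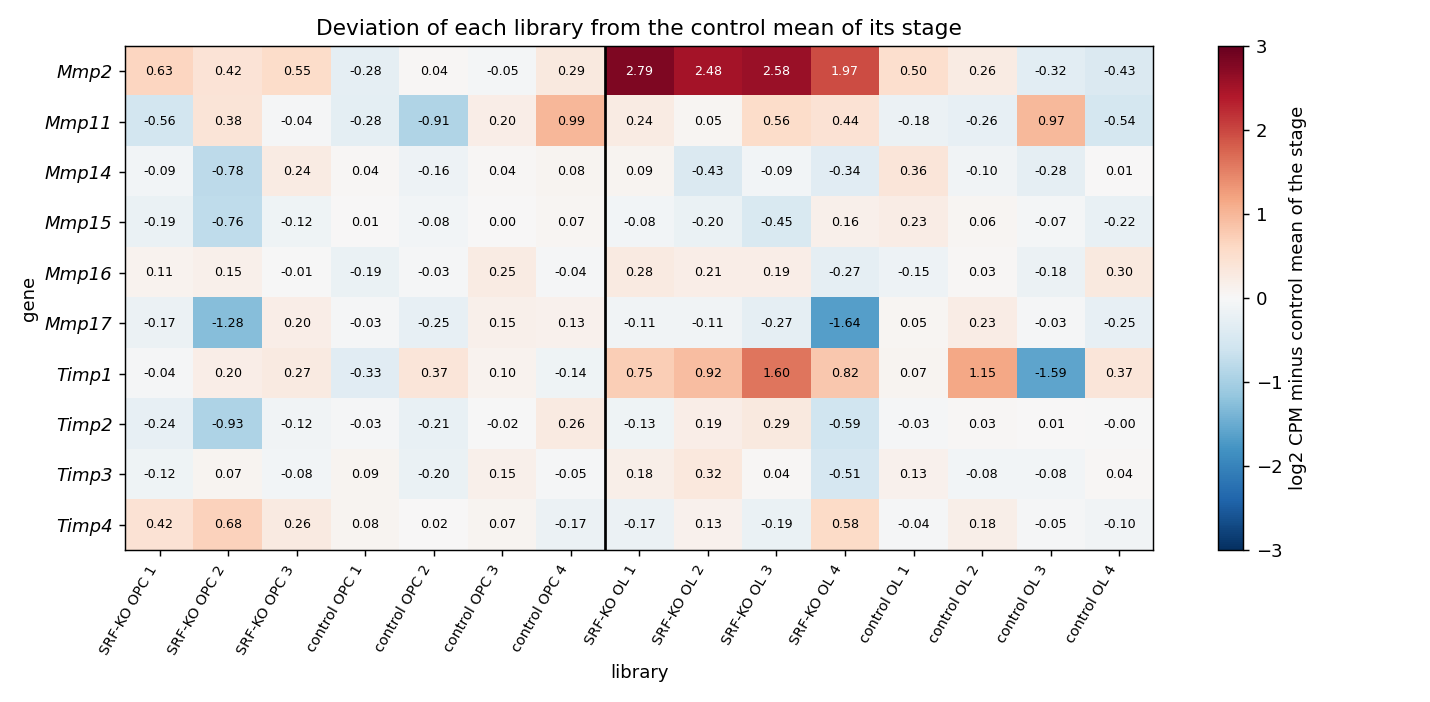
Difference between log2 CPM in each library and the control mean of the same stage (colour and number, red above and blue below), for the 10 genes (rows) and 15 libraries (columns, SRF-KO left of control within each stage). Mmp2 lies 1.97 to 2.79 above the control mean in the 4 SRF-KO OL libraries and 0.42 to 0.63 above it in the 3 SRF-KO OPC libraries; the largest negative values of Mmp17 stand in SRF-KO OPC replicate 2 and SRF-KO OL replicate 4.

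The map of deviations shows how much of the spread came from single libraries. In SRF-KO OPC replicate 2, Mmp14, Mmp15, Mmp17 and Timp2 were 0.76 to 1.28 below the control mean on the log2 scale, while Timp4 was 0.68 above it. In the other 2 SRF-KO OPC libraries those 4 genes lay between -0.24 and 0.24. The fold changes of these genes without that library are given above beside each gene.

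Levels of different genes can be set side by side only per length, as TPM, the authors' abundance values, which divide counts by effective gene length before scaling. In SRF-KO OPCs the order of mean TPM began with Mmp15 (75.9) and Timp4 (73.4), whose ranges overlapped, followed by Mmp16 (30.9). Timp2 (23.7), Mmp14 (17.3) and Timp3 (15.96) came next, neighbours whose ranges overlapped, then Mmp2 (12.0), Timp1 (9.75), Mmp17 (4.46) and Mmp11 (0.81). In control OPCs Mmp15 (100.6) was clear of Timp4 (55.7), Timp2 (32.9) and Mmp16 (32.2) overlapped, as did Mmp14 (19.5) and Timp3 (18.0), and Timp1 (9.31), Mmp2 (8.79) and Mmp17 (6.07) overlapped as neighbours above Mmp11 (1.16). In TPM, Timp4 was thus the highest of the TIMPs in both OPC groups.

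The summed TPM of the 4 TIMPs divided by that of the 6 MMPs was 0.81, 1.14 and 0.74 in SRF-KO OPCs, against 0.71, 0.70, 0.70 and 0.65 in control OPCs. The ranges did not overlap, and the highest value was again SRF-KO OPC replicate 2. The ratio is a sum over genes picked with these results known and carries no test. In OLs it was 4.84, 6.85, 5.43 and 5.00 in SRF-KO libraries and 5.95, 5.84, 4.90 and 6.57 in controls. OL values are per gene-body length, introns included, so they cannot be set against those of OPCs. Within OLs, Timp4, Timp3 and Timp2 led with mean TPM of 28.0, 23.4 and 20.4 in SRF-KO libraries and 21.6, 18.3 and 16.5 in controls, and neighbours in that order overlapped. By TPM, Mmp2 was the lowest of the 10 in control OLs (0.133 TPM). It stood at 1.03 TPM in SRF-KO OLs, where its range overlapped those of Timp1 and Mmp17. The OL order and ratio depend on listed gene-body lengths, such as 6234 bases for Timp4, 26090 for Mmp2 and 236215 to 265688 for Mmp16. They are thus not an order or ratio of transcript numbers. In control OLs Mmp16 had 36.2 CPM and 0.325 TPM, while Mmp11 had 1.78 CPM and 2.215 TPM. By mean CPM, Timp1 (1.12) was lower there than Mmp2 (1.65). The OL place of Mmp11 is uncertain, since its listed length ran from 1183 to 5860 bases between libraries.

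Of the 4 TIMP genes, 3 lie within an intron-bearing synapsin gene on the opposite strand. Timp1 (chrX:20870166-20874735) sits in Syn1, Timp3 (chr10:86300372-86349506) in Syn3 and Timp4 (chr6:115241892-115252205) in Syn2, each over its full length. Synapsins are proteins of synaptic vesicles. The exons of Timp1 and Syn1 share 0 bases, those of Timp4 and Syn2 share 90 and those of Timp3 and Syn3 share 1733. The libraries do not mark strand, so reads from the shared exons, and in OLs from anywhere in the overlap, cannot be assigned to 1 of the 2 genes with certainty.

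**Figure D4:**
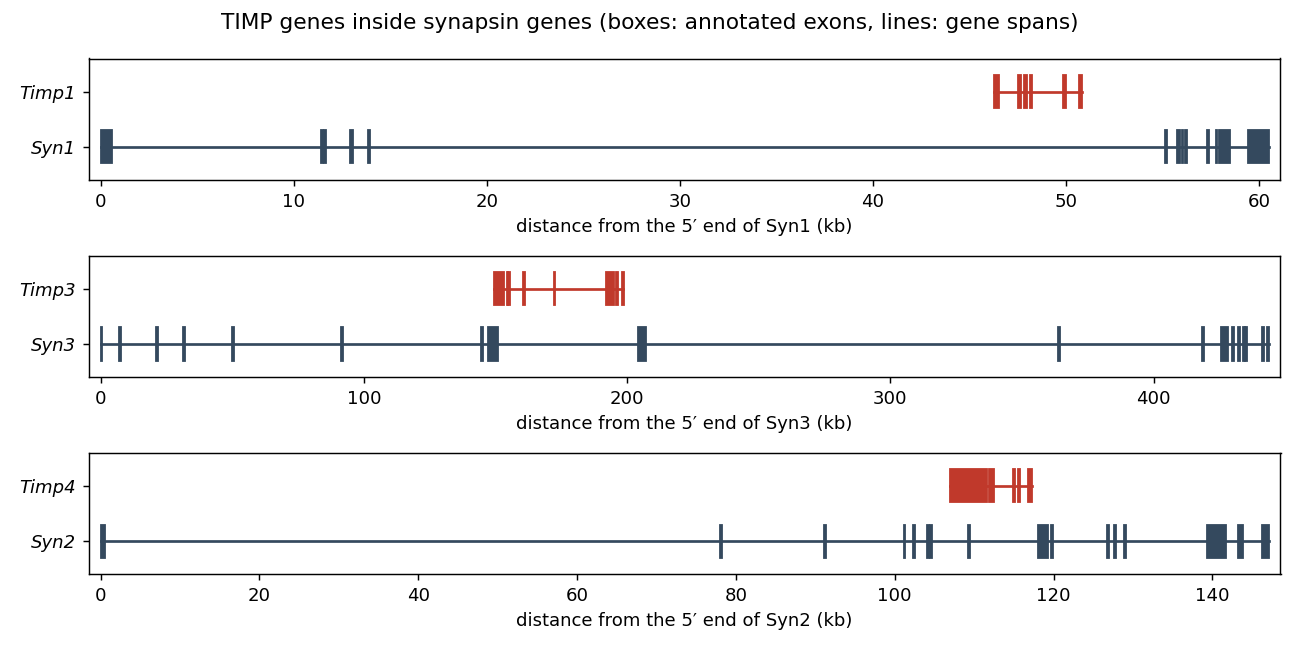
Annotated exons (boxes) and spans (lines) of Timp1, Timp3 and Timp4 above their host genes Syn1, Syn3 and Syn2, by distance in kb from the 5′ end of the host. Each TIMP gene lies inside the span of its host, and only the exons of Timp3 and Timp4 overlap exons of the host.

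With edgeR and with DESeq2, 0 of the 3 host genes passed the threshold in either stage. With an unadjusted p under 0.05 there was 1, Syn3 in OLs, where 11.6% of all genes tested had one. Syn2 averaged 82.8 ± 4.38 CPM in SRF-KO OLs and 79.1 ± 3.28 CPM in control OLs (SD, n = 4 each), a log2 fold change of 0.07, and its log2 fold change in OPCs was -0.12, beside 0.47 for Timp4. Syn1 had log2 fold changes of 0.07 in OPCs and -0.25 in OLs. For Syn3 they were 0.28 in OPCs and -0.51 in OLs, where it averaged 4.86 ± 1.45 CPM in SRF-KO and 6.98 ± 1.04 CPM in control libraries (adjusted p = 0.415, edgeR). Mmp11 overlaps Chchd10 on the opposite strand over 3367 bases, 25.4% of its span, with 155 shared exon bases. In OL libraries Chchd10 had 12.2 to 42.25 CPM, against 1.05 to 3.37 CPM for Mmp11. The part of Chchd10 reads in the Mmp11 values was not tested. Cep295nl covers 18.5% of Timp2 on the same strand. Gm17482 covers 100% of Timp4 on the opposite strand with 0 shared exon bases, and the pseudogene Gm11860 lies within Mmp16. No annotated gene overlaps Mmp14, Mmp15 or Mmp17.

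Promoters of 7 members were in the RefSeq table used (GRCm38.p6; 250 bases before to 50 after the gene start), all but Mmp2, Mmp16 and Mmp17. The CArG box, the sequence SRF binds, matched in 0 of the 7 and in 1.63% of all 32851 promoters, searched on both strands. The EGR motif GCGNGGGCG matched in Mmp11 and Mmp14 (5.55% of all promoters), and the AP-1 motif TGANTCA in 0 of 7 (7.81%). The GC box GGGCGG, which overlaps both EGR matches, was present in 6 of 7 (35.66%), all but Timp4. These windows hold or lack the letters, and sites elsewhere were not searched.

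Other MMP genes were mostly at very low levels. Of 17 further MMP genes, among them the gelatinase Mmp9 and the collagenases, none passed the count filter in OPCs, and 16 stayed under 1 CPM in every OPC library. In OLs 3 were tested, of which 0 passed with edgeR or DESeq2 or had an unadjusted p under 0.05, and 14 stayed under 1 CPM. Mmp19, with the highest CPM of them, averaged 17.9 ± 3.19 CPM in SRF-KO OLs and 17.5 ± 1.14 CPM in control OLs (log2 fold change 0.03, adjusted p = 0.964, edgeR). It shares 789 exon bases with Tmem198b on the opposite strand.

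Related proteases gave 1 call. Adam11, a catalytically inactive ADAM of neural cells, fell in OLs, with 13.7 ± 1.47 CPM in SRF-KO and 28.6 ± 5.28 CPM in control libraries (SD, n = 4 each). Its log2 fold change was -1.05 (SE 0.161, adjusted p = 0.0228, edgeR). It was lower in SRF-KO without overlap of the groups, as were 3.9% of all genes tested in OLs. The call was kept in 3 of the 8 fits that leave out 1 library, with adjusted p between 0.00711 and 0.105. It was the only one among 10 tested ADAM genes in OLs, where 0.296% of all genes were called. Of these 10, 5 had a log2 fold change above 0, and the median was -0.01. In OPCs 0 of 9 ADAM genes passed with edgeR or DESeq2 and 1 had an unadjusted p under 0.05, against 11.9% of all genes (1 above 0, median -0.08). Adam22, a receptor of LGI proteins, was the nearest at -0.39 (adjusted p = 0.269, edgeR), before Adam15 at -0.22 (adjusted p = 0.522, edgeR).

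Among the ADAMTS proteases, some of which cut aggrecan-family proteoglycans, 0 of 13 tested genes passed with edgeR in either stage. At an unadjusted p under 0.05 there were 0 in OPCs and 2 in OLs, against 11.9% and 11.6% of all genes tested. DESeq2 called 0 in OPCs and 1 in OLs, Adamts4, against 1.05% and 1.97% of all genes. Adamts4, with the highest CPM of the list in OLs, averaged 104.3 ± 17.6 CPM in SRF-KO OLs and 155.9 ± 15.6 CPM in control OLs. Its log2 fold change was -0.58 (adjusted p = 0.193, edgeR). In OLs it was the 1 gene of the list lower without overlap and 0 were higher, against 3.9% and 4.19% of all genes tested. Adamts5 averaged 11.6 ± 2.68 CPM in SRF-KO OLs and 7.08 ± 0.872 CPM in control OLs (0.73, adjusted p = 0.179, edgeR). Without SRF-KO OL replicate 4 both passed, Adamts4 at -0.53 (adjusted p = 0.0357, edgeR) and Adamts5 at 0.85 (adjusted p = 0.0130, edgeR), in a fit that called 4.12% of all genes. Adamts1, with the highest CPM of the list in OPCs, had a log2 fold change of 0.05 there, Adamts10 one of -0.34 (adjusted p = 0.538, edgeR) and Adamts7 one of 0.14 (adjusted p = 0.737, edgeR). The list medians were -0.09 in OPCs and -0.01 in OLs, with 6 of 13 above 0 in each stage. Without SRF-KO OPC replicate 2 the OPC median was 0.15, with 8 of 14 above 0.

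Regulators of MMP activity, such as the plasminogen activators, serpins, Furin, Bsg and Reck, had 0 of 17 genes past the threshold in OPCs and 0 of 18 in OLs with edgeR. At an unadjusted p under 0.05 there were 5 in OPCs and 3 in OLs, against 11.9% and 11.6% of all genes tested. DESeq2 called Sparc in OPCs and Cd44 and Thbs1 in OLs, and 1.05% and 1.97% of all genes there. Groups did not overlap for 6 of 17 in OPCs, all with SRF-KO higher, where 5.96% of all genes had that pattern. In OLs it was 2 of 18, both with SRF-KO lower, against 3.9% of all genes. In OPCs all 17 log2 fold changes were above 0, with a median of 0.23, against 49.8% above 0 over all genes tested, and 15 of 17 without SRF-KO OPC replicate 2. The pair with the lowest p there were Sparc, a matrix glycoprotein (134 ± 15.4 CPM in SRF-KO and 93.9 ± 5.29 CPM in control OPCs; 0.51, adjusted p = 0.108, edgeR), and Serpine2, an inhibitor of plasminogen activators and thrombin (2155 ± 365 CPM in SRF-KO and 1669 ± 67.5 CPM in control OPCs; 0.37, adjusted p = 0.219, edgeR). In OLs 7 of 18 were above 0, with a median of -0.07. Cd44, the hyaluronan receptor that docks Mmp9 and Mmp14 at the cell surface, averaged 375.8 ± 116 CPM in SRF-KO OLs and 978.5 ± 297 CPM in control OLs (-1.38, adjusted p = 0.0694, edgeR), and its groups did not overlap. Thbs1, a matrix glycoprotein that binds Mmp2, averaged 20.1 ± 2.99 CPM in SRF-KO OLs and 11.2 ± 3.53 CPM in control OLs (0.84, adjusted p = 0.167, edgeR). Without SRF-KO OL replicate 4, Cd44 passed at -1.34 (adjusted p = 0.0194, edgeR), Thbs1 at 0.88 (adjusted p = 0.0286, edgeR), the related Thbs2 at 0.90 (adjusted p = 0.0224, edgeR) and Cav1, which encodes caveolin, at 0.77 (adjusted p = 0.00612, edgeR). That fit called 4.12% of all genes, against 0.296% with every library kept.

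Matrix substrates had 0 of 22 tested genes past the threshold in each stage with edgeR, with 5 above 0 in OPCs (median -0.19) and 10 above 0 in OLs (median -0.03). Without SRF-KO OPC replicate 2 it was 10 of 23 above 0 in OPCs (median -0.06). At an unadjusted p under 0.05 there was 1 in OPCs and 5 in OLs, against 11.9% and 11.6% of all genes tested. DESeq2 called 0 in OPCs and 3 in OLs (Ncan, Bcan and Tnr, the tenascin of perineuronal matrix), against 1.05% and 1.97% of all genes. In OPCs the nearest were Dag1, which encodes dystroglycan (-0.22, adjusted p = 0.410, edgeR), and Cspg4, the NG2 proteoglycan (-0.41, adjusted p = 0.434, edgeR). In OLs the proteoglycan neurocan (Ncan) averaged 596 ± 195 CPM in SRF-KO and 1231 ± 88.2 CPM in control libraries (-1.05, adjusted p = 0.114, edgeR). Brevican (Bcan) averaged 355 ± 135 CPM in SRF-KO OLs and 855 ± 319 CPM in control OLs (-1.27, adjusted p = 0.171, edgeR), and neither gene's groups overlapped. Of the 22 substrates in OLs, 3 were lower and 2 higher in SRF-KO without overlap, against 3.9% and 4.19% of all genes tested. Without SRF-KO OL replicate 4 both passed, Ncan at -0.96 (adjusted p = 0.0260, edgeR) and Bcan at -1.06 (adjusted p = 0.0297, edgeR), as did Tnr at -0.44 (adjusted p = 0.0344, edgeR). In that fit 4.12% of all genes were called.

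Markers of cell types were summed for each library. All 6 OPC markers were counted in every library, and their sum was 2064 to 2333 CPM in SRF-KO OPCs and 2092 to 2430 CPM in control OPCs. In OLs it was 1290 to 1489 CPM in SRF-KO and 1379 to 1437 CPM in control libraries. There the OPC marker Pdgfra (67.1 ± 9.10 CPM in SRF-KO and 51.4 ± 1.76 CPM in control OLs) and Ptprz1 (576.5 ± 4.38 CPM in SRF-KO and 464.3 ± 37.4 CPM in control OLs) were higher without overlap, as Mmp2 was. C1ql1 was lower without overlap (72.6 ± 9.09 CPM in SRF-KO and 111.6 ± 10.2 CPM in control OLs), and none of the 6 was called with edgeR. Gpr17 had 226 to 301 CPM in SRF-KO and 253 to 399 CPM in control OLs, with overlap. Lhfpl3 had 358 to 461 CPM in SRF-KO and 404 to 524 CPM in control OLs, also with overlap. Of the 6 markers 3 had a log2 fold change above 0 in OLs, so their sum holds moves in both directions. The 9 oligodendrocyte markers were present in every OL library, with a sum of 13960 to 19980 CPM in SRF-KO OLs and 20360 to 38810 CPM in control OLs. Of these 9 markers, 1 was called lower in OLs with edgeR, which called 0.296% of all genes tested, and 5 were lower without overlap. Their median log2 fold change was -0.695, with 1 above 0. Astrocyte markers were abundant in the OL cultures, 9 of 9 counted, with a sum of 9041 to 14210 CPM in SRF-KO OLs and 17300 to 34740 CPM in control OLs. Gfap, an astrocyte filament gene, made up most of that sum and averaged 7486 ± 1928 CPM in SRF-KO OLs and 18740 ± 6748 CPM in control OLs. Of the 9 astrocyte markers, 2 (Gfap and Sox9) were lower without overlap, and Aldh1l1 (log2 fold change 0.03), Slc1a2 (-0.04) and Gja1 (-0.12) lay near 0. The oligodendrocyte and astrocyte sums did not overlap between the OL groups, and both were lower in SRF-KO OLs, where Mmp2 was higher. In OPCs the oligodendrocyte sum was 475.9 to 515.6 CPM in SRF-KO and 431.9 to 465.3 CPM in control libraries, without overlap and higher in SRF-KO. Of the 4 oligodendrocyte markers tested in OPCs, 3 had a log2 fold change above 0, and 1 was higher without overlap. The astrocyte sum in OPCs was 1788 to 1961 CPM in SRF-KO and 1666 to 1767 CPM in control libraries, also without overlap and higher in SRF-KO. There 5 of its members were higher without overlap (Gfap, Aqp4, Slc1a3, Gja1 and Aldoc) and 1, Sox9, was lower without overlap, at 415.1 ± 39.6 CPM in SRF-KO and 530.1 ± 43.7 CPM in control OPCs. Over all genes tested in OPCs, 5.96% were higher and 6.25% lower in SRF-KO without overlap. For OLs those shares were 4.19% and 3.9%. The part of these differences in the results on Mmp2, Timp4 and the proteoglycans was not tested.

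Markers of fibroblasts and mural cells, which are known to express Mmp2, were also counted. The 10 markers summed to 40.2 to 74.9 CPM in SRF-KO OLs and 38.6 to 53.6 CPM in control OLs, most of it Acta2, an actin gene that other cells express too. Among SRF-KO OLs, replicate 4 had the highest sum (74.9 CPM) and the lowest Mmp2 (6.79 CPM). The remaining SRF-KO OL libraries had sums of 40.2 to 55.1 CPM. The 5 fibroblast members Col1a1, Col1a2, Col3a1, Dcn and Lum stayed at or under 0.943 CPM in every OL library and did not pass the count filter. All 5 tested members, Acta2 and the mural genes Kcnj8, Pdgfrb, Rgs5 and Vtn, had log2 fold changes above 0 in OLs, with a median of 0.21 and 0 calls with edgeR. Kcnj8 had 0.75 (adjusted p = 0.461, edgeR), at 1.1 to 1.89 CPM in SRF-KO and 0.629 to 1.53 CPM in control OLs. Vtn had 0.47 (adjusted p = 0.603, edgeR), at 1.19 to 1.65 CPM in SRF-KO and 0.879 to 1.38 CPM in control OLs. These 2 mural genes thus lay at low levels, with overlapping groups. Their part in the result on Mmp2 was not tested. Sums for the 10 microglia markers were 12.6 to 16.8 CPM in SRF-KO OLs and 10.3 to 16 CPM in control OLs, and for the 7 endothelial markers 4.73 to 8.49 CPM in SRF-KO OLs and 4.00 to 5.66 CPM in control OLs.

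Genes whose log2 CPM followed that of Mmp2 closely over the 8 OL libraries, among 10499 genes with a mean log2 CPM of at least 3, included Cfap300 (Pearson r = 0.968), Gm8116 (0.966), Kcnk1 (0.965) and Ncald (0.964). Kcnk1, a potassium channel gene, averaged 66.4 ± 3.70 CPM in SRF-KO OLs and 45.2 ± 2.19 CPM in control OLs. The 8 points share the 2 groups and the depth of their libraries, so the r is a description of likeness in these libraries.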

How the data were processed

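PolyA RNA was made into Smart-seq2 libraries, which do not mark strand, and sequenced as single reads, per the labels' protocols. Per the submitters' processing notes, reads went through bcl2fastq, STAR and RSEM, and the builds GRCm38 and Rnor_6.0 are named without roles; versions are not given in the sources used here. The deposited expected counts are RSEM estimates with multi-mapping reads shared out, and the deposited TPM values are those divided by effective length. Among 8995 single-transcript genes with introns, the listed length equalled the spliced length in 89.8% of cases in OPC files and the genomic span in 90.0% in OL files, so levels are compared within a stage only.

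Expected counts were rounded and fitted within each stage with edgeR 4.0.16 in R 4.3.3 (filterByExpr, TMM, quasi-likelihood F-test, Benjamini-Hochberg over all genes at 0.05). The SE was derived from the test, as the size of the log2 fold change over the root of F. Log2 CPM levels used a prior count of 2. Permutation tests were exact, on single genes; 3 against 4 libraries cannot give a p under 0.0286. The procedure was tested on simulated counts. Alternatives were library totals, DESeq2 1.42.0, no filter, a replicate block, 1 fit of all 15 libraries, and each library left out. Symbols matched for 45143 of 45706 IDs, and coordinates are GENCODE M21.

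The members and lists were chosen with earlier results of these data known. The named genes are all members, Srf, the synapsin host genes, called genes of the lists of proteases, regulators and substrates or else the 2 with the smallest p at a mean log2 CPM of at least 3, the other MMP and ADAMTS gene with the highest CPM, and the 5 genes most like Mmp2, of which 1 is not reported here. Other genes were chosen after their values were seen.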

Additional observations from a re-analysis of the deposited data

Results flagged for a closer look

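Among 30 groups of 4 libraries (10 genes in 3 groups), 3 held a library whose gap to its nearest neighbour exceeded Dixon's critical share of the group's range, and chance flags about 1 in 20. Mmp17 was lowest in SRF-KO OL replicate 4, at 3.207 CPM (17 counts), the library that stood apart on the first principal component. Timp1 was highest in SRF-KO OL replicate 3, at 3.085 CPM (15 counts), and Mmp11 in control OL replicate 3, at 3.367 CPM (22 counts).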

How the results depend on the processing

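The counts of members past the threshold (0 of 10 in OPCs, 0 of 9 in OLs, 0 of 9 for the interaction) were 0 under every alternative run, each library left out included. For the members' fold changes, 236 of 250 alternative values kept their direction and, where tested, their side of the threshold. The other 14 reversed, none of them of a called gene. The 250 values include those of Mmp2 in OLs, the contrast on which it was picked, so its agreement there is no support. Mmp2 in OLs had no test and was judged by direction and size alone, and it stayed between 2.39 and 2.81. No tested member was called in the main fits, so keeping the side of the threshold means only staying uncalled.

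In OPCs 9 genes were called of all tested (3 higher, 6 lower; 6 and 7 with library totals), against 139 with DESeq2 (70 higher, 69 lower), 101 without the filter, 31 in 1 fit of all libraries, 2 with the replicate block, and 1 to 4 with a library left out. In OLs 45 were called, against 299 with DESeq2 (100 higher, 199 lower), 129 without the filter, 94 in 1 fit, 74 with library totals (39 higher, 35 lower, main 10 and 35) and 5 with the block, and 7 to 636 with a library left out, the 636 without SRF-KO OL replicate 4 and 71 without control OL replicate 4. These counts lay over 1.5 times away from the main one for every library but SRF-KO OL replicate 1. Library totals moved the OL median of all genes to 0.24; Mmp14 (0.021), Mmp15 (0.087) and Timp2 (0.205) then turned positive but lay below that median.

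Reversed values with a library left out belong to ranges of -0.476 to 0.344 for Mmp11, -0.41 to 0.083 for Mmp14, -0.654 to 0.026 for Mmp17 and -0.107 to 0.01 for Timp3 in OPCs, and of -0.14 to 0.101 for Timp2, -0.071 to 0.156 for Timp3 and -0.09 to 0.205 for Timp4 in OLs. Mmp11 in OPCs was 0.338 with the replicate block. The cause was not tested. Srf in OLs lost its call with the block, and Adam11 with the block, library totals and 1 fit.

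Same-numbered SRF-KO and control libraries had deviations that correlated at -0.016 to 0.049 in OPCs and -0.281 to 0.026 in OLs. For different numbers it was -0.051 to 0.051 and -0.227 to 0.284. Deviations from means of 3 or 4 libraries cannot show whether same-numbered libraries were prepared as pairs. The block changed no member's call. Mmp11 and, in OLs, Timp1 rest on low counts. With library totals the OL medians of the protease, regulator and substrate lists (0.159 to 0.214 for the ADAM, ADAMTS, regulator and substrate genes) were also positive and below the median of all genes. The values of the lists without the libraries that stood apart were added after seeing the data.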
